A study of Mus musculus with 9 samples.

Results

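The miR-297, miR-466, miR-467 and miR-669 miRNAs form a large group of related mouse miRNAs, most of them encoded inside the gene Sfmbt2. Their levels were followed across mouse embryos carrying different deletions within miR-17~92, a polycistron whose hairpins belong to 4 seed families. Members were the rows of the deposited miRNA table named miR-297, miR-466, miR-467 or miR-669 followed by a letter or a hyphen. Rows of 1 accession with nearly equal totals were counted once. This gave 62 members of 986 miRNA rows, from 74 of the 1046 deposited rows and 58 of the 977 accessions. There were 5 miR-297, 29 miR-466, 7 miR-467 and 21 miR-669 rows. Of the 62, 23 (37.1%) had 10 or more recovered reads in all 8 genotype libraries, against 634 of all 986 rows (64.3%).

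The embryos were at embryonic day 9.5 and were labelled female. RNA was extracted with Trizol from what remained of each embryo after removal of heart and tail bud. Each genotype had 1 library: wild type with the full cluster, deletion of miR-17 (ΔmiR-17), of miR-18 (ΔmiR-18), of miR-19 (ΔmiR-19) or of miR-92 (ΔmiR-92), deletion of miR-17 and miR-18 (ΔmiR-17,18), deletion of miR-17, miR-18 and miR-92 (ΔmiR-17,18,92), and knockout of the whole cluster (full deletion). The mutant libraries share no deletion with the wild type, which served as the reference for all 7 of them. Strain, litter, the number of embryos behind each library and whether extraembryonic membranes were kept are not given in the sources used here. A library of undetermined reads entered no comparison.

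Sfmbt2 encodes a Polycomb-group protein and is an imprinted gene, expressed from the paternal allele in early embryos and in extraembryonic tissues. An intron of the rodent gene holds a long tandem array of miRNA hairpins, best known from the placenta and its trophoblast, where they are abundant. As for other miRNAs, each hairpin can give a 5p and a 3p mature strand, and bases 2 to 8 of the mature strand, the seed, pair with target transcripts. Many members of these families are near-copies of each other and contain simple repeats, so that short reads can fit several of them.

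The sequences are shown for their simple repeats. RefSeq (GRCm38.p6) entries matched 2 of the 58 member names, and 4 hairpins of these families were in its table. The mature miR-466q (chr3:28419988-28420007, plus strand) and miR-466k (chr3:85467396-85467418, plus strand) are shown 5′ to 3′ with the seed in capitals.
miR-466q: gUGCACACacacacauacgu
miR-466k: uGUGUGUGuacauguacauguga
The seeds of the pair differ, and both lie in alternations of a pyrimidine with a purine. In miR-466q a 2-base repeat covered 12 of its 20 bases, and in miR-466k it covered 9 of 23. The hairpins Mir466k (chr3:85467377-85467498, plus strand) and Mir297-1 (chr7:10958437-10958512, minus strand) show the longest run of a repeated unit in capitals, a 2-base unit in Mir466k and a 4-base unit in Mir297-1.
Mir466k: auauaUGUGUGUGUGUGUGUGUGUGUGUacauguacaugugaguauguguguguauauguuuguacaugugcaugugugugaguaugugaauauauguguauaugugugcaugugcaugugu
Mir297-1: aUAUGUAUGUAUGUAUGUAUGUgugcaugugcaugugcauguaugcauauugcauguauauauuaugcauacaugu
The repeat ran over 23 of 122 bases in Mir466k and over 21 of 76 bases in Mir297-1. Mir466k and Mir297-1 lie outside Sfmbt2.

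In the GENCODE annotation of GRCm38, Sfmbt2 spans positions 10370510 to 10595253 of chromosome 2 on the plus strand. Of 82 annotated hairpins of the 4 families, 72 lay within it, all on the strand of the gene and none overlapping an exon. All 72 fell between 10466663 and 10518279, a stretch of 51617 bases in intron 11 of the transcript Sfmbt2-205, which has 23 exons. The most abundant member came from Mir669c (chromosome 2, 10509296 to 10509404). Mir467c lay at 10473931 to 10474027, Mir467e at 10505721 to 10505807 and Mir467d at 10507630 to 10507714. Several miR-669 hairpins lay near the start of the cluster, among copies of Mir466f, with Mir669f at 10467229 to 10467349, Mir669e at 10467495 to 10467613, Mir669b at 10467790 to 10467886, Mir669d at 10468343 to 10468463 and Mir669l at 10468971 to 10469068. Matched by name, 53 member rows had hairpins only within Sfmbt2 and carried 97.0% of the summed member level. Another 5 rows had hairpins both there and elsewhere, and miR-466k and miR-466q had theirs only elsewhere, with 0.361% of the sum. Of the 5, miR-297a-3p had the same reads (mean 23.2 nRPM) as miR-297b-3p and miR-297c-3p, which are among the 53. Matching by name cannot tell the origin of such reads. The arms of miR-466a matched no annotated hairpin by name. No member row carried the name of 24 of the 72 hairpins, 10 of them Mir467a and 11 Mir669a copies, whose mature miRNAs are not analysed here. Outside Sfmbt2, the hairpins Mir466i, Mir466j, Mir467f, Mir467g, Mir467h and Mir669n also had no member row. The 97.0% therefore covers only hairpins with a member row.

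**Figure D1:**
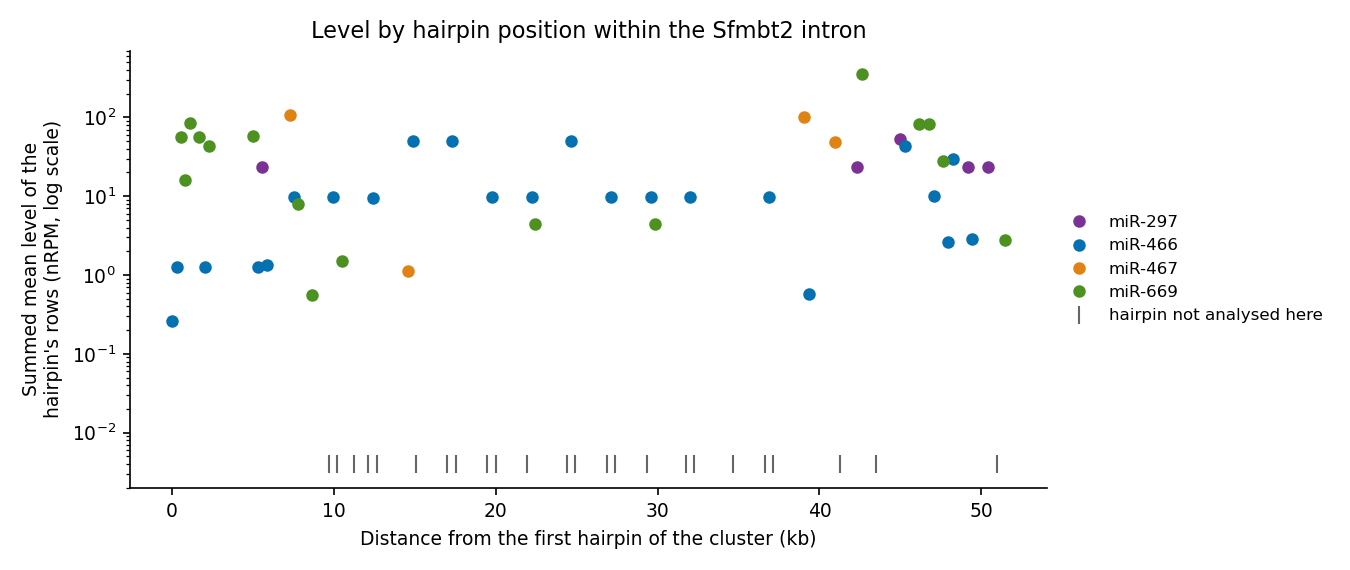
Summed mean level of the member rows of each hairpin in the Sfmbt2 intron (nRPM over the 8 genotype libraries, log scale) against its distance from the first hairpin of the cluster in kb, coloured by family; a row that matches several hairpins is drawn at each of them, and grey ticks mark the 24 hairpins not analysed here. The highest point, above 40 kb, is Mir669c with a mean of 354 nRPM.

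Levels are given in nRPM, a normalised scale whose average library total is that of RPM values, in which 1 read was worth 0.0624 to 0.157 in the genotype libraries. Those libraries held 6564461 to 18481223 miRNA reads. The deleted miRNAs followed the labels: miR-17-5p was at or below 180.0 nRPM in the 4 libraries that lack it and at or above 17331 in the others. For miR-18a-5p these values were 72.6 and 3446, for miR-19a-3p 15.1 and 3157, and for miR-92a-1-5p 1.26 and 502 nRPM. Among marker lists, none had all of its rows at 0 reads. The muscle list (2175 to 5872 nRPM) and the neural list (2052 to 5302 nRPM) differed more than 2-fold between libraries. So did the endothelial list (7371 to 17558 nRPM) and the liver list (69.4 to 271 nRPM). The miR-290 to miR-295 cluster, a group of early-embryo and trophoblast miRNAs, ran from 1641 nRPM in ΔmiR-18 to 3214 nRPM in ΔmiR-92, with 3161 nRPM in wild type. Since each genotype had 1 library, every ratio below compares 2 libraries and has no replicate check. Its 95% exact conditional (Clopper-Pearson) interval covers counting error only, and PCR reads without molecular identifiers are not independent molecules.

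The 62 members were a small part of the miRNA reads and their sum was highest in the wild-type library. The 24 Sfmbt2 hairpins without a member row are not in this sum. Summed over the 62 members, the level was 1717 nRPM in wild type, with ΔmiR-18 at 1481, ΔmiR-19 at 1479, ΔmiR-92 at 1339, ΔmiR-17 at 1108, the full deletion at 1103, ΔmiR-17,18,92 at 1076 and ΔmiR-17,18 at 914. The mean was 1277 ± 270.3 nRPM (SD, n = 8 libraries of different genotypes). As a share of miRNA reads this was 0.0861% in ΔmiR-17,18 to 0.155% in wild type. All 7 mutant libraries lay below wild type, at 0.532 to 0.862 of its level. That order rested on a single member. With miR-669c-5p left out, the wild-type sum was 877 nRPM, the mutants lay at 0.826 to 1.28 of it, and 3 of the 7 were below it. In bulk samples, fewer cells of a type and less miRNA per cell cannot be told apart.

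**Figure D2:**
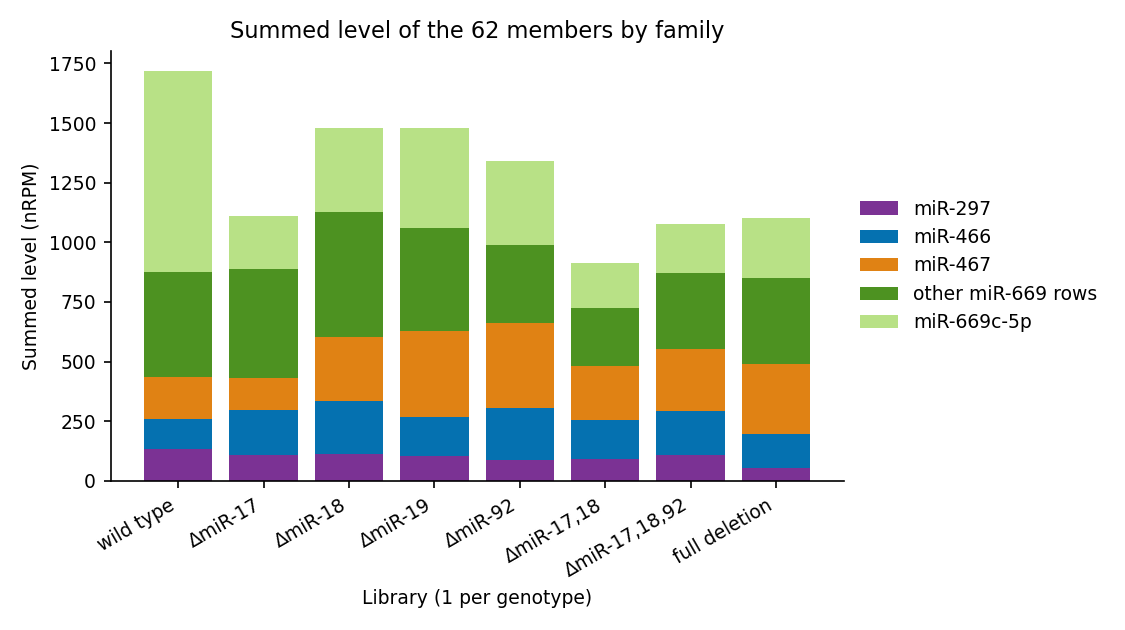
Summed level of the 62 members in each of the 8 genotype libraries (nRPM, bars from 0), stacked by family with miR-669c-5p drawn apart from the other miR-669 rows; there is 1 library per genotype and no error bar. The wild-type bar is the tallest at 1717 nRPM, of which miR-669c-5p makes up 840.3 nRPM.

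miR-669 carried 58.1% of the mean sum, miR-467 20.3%, miR-466 13.7% and miR-297 7.83%. These shares count rows with the same reads each time, and the miR-297 share counts 1 set of 3p reads in 3 rows. With such reads counted once, miR-669 was 51.7%, miR-466 12.8% and miR-297 4.205% of the same sum. The miR-467 share did not change. The 5p strands carried 85.2% and the 3p strands 14.1%. miR-669c-5p alone held 27.7%, and the 10 highest rows held 75.4%, with the shared reads of miR-669b-5p and miR-669m-5p counted in both rows. Only 3 of the 62 members averaged 100 nRPM or more and 19 averaged 10 or more, while 23 were below 1 nRPM. The median of the members' mean levels was 2.52 nRPM, against 20.2 nRPM over all 986 rows.

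The miR-669 family was led by miR-669c-5p, the 5p strand of Mir669c and the 218th most abundant of all rows. It stood at 840.3 nRPM in wild type, with ΔmiR-19 at 419, ΔmiR-18 at 355, ΔmiR-92 at 350.6, the full deletion at 251, ΔmiR-17 at 218.7, ΔmiR-17,18,92 at 206.2 and ΔmiR-17,18 at 189. These values rest on 1654 to 5687 reads. Wild type stood apart from all 7 mutants, and ΔmiR-17,18 and ΔmiR-17,18,92 were lowest. The ratios to wild type ran from 0.225 (95% interval 0.213 to 0.238) in ΔmiR-17,18 to 0.499 (0.479 to 0.520) in ΔmiR-19. Against the median of the 8 libraries in place of wild type, miR-669c-5p had a log2 ratio of 0.48 in ΔmiR-19, 0.24 in ΔmiR-18 and 0.22 in ΔmiR-92, and a ratio below 0 in the other 4 mutants.

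Without miR-669c-5p, the 20 other miR-669 rows summed to 525 nRPM in ΔmiR-18, with ΔmiR-17 at 458, wild type at 442, ΔmiR-19 at 430.3, the full deletion at 363, ΔmiR-92 at 327, ΔmiR-17,18,92 at 319 and ΔmiR-17,18 at 242. Wild type was thus within the range of the mutants. The whole family was below wild type in all 7 mutants, at 0.336 to 0.686, and this direction held under each of the 4 other scalings of the libraries.

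miR-669b-5p and miR-669m-5p had the same reads in every genotype library, so they count as 1 measurement. They stood at 132 nRPM in ΔmiR-18, with ΔmiR-17 at 100.1, wild type at 87.9, ΔmiR-17,18,92 at 75.7, the full deletion at 72.4, ΔmiR-92 at 71.6, ΔmiR-19 at 68.8 and ΔmiR-17,18 at 49.6. ΔmiR-18 was highest, and wild type lay inside the mutants' range.

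miR-669d-5p stood at 76.8 nRPM in ΔmiR-17, with ΔmiR-19 at 76.7, the full deletion at 75.6, wild type at 74.7, ΔmiR-18 at 59.6, ΔmiR-17,18,92 at 38.4, ΔmiR-92 at 34.8 and ΔmiR-17,18 at 14.0. The ΔmiR-17,18 library was far below the rest, at 0.187 of wild type (0.152 to 0.229). ΔmiR-92 and ΔmiR-17,18,92 were next lowest, at 0.465 and 0.515, while ΔmiR-17, ΔmiR-19 and the full deletion lay within 3% of wild type by ratio (1.03, 1.03 and 1.01).

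miR-669l-5p went the other way and was lowest in wild type. It stood at 22.6 nRPM there, and at 62.7 nRPM in ΔmiR-19, with ΔmiR-18 at 53.9, the full deletion at 47.9, ΔmiR-92 at 42.1, ΔmiR-17,18 at 40.0, ΔmiR-17 at 34.2 and ΔmiR-17,18,92 at 33.0. The highest ratio was 2.78 (2.31 to 3.36) in ΔmiR-19.

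Among the less abundant miR-669 rows, miR-669e-5p was highest in wild type at 31.5 nRPM and lowest in ΔmiR-92 at 5.58 nRPM. Its ratios to wild type were 0.687 in ΔmiR-17 and 0.177 to 0.444 in the other 6 mutants. miR-669o-5p ranged from 10.8 nRPM in ΔmiR-17,18,92 to 41.9 in ΔmiR-19, with 33.7 in wild type. miR-669f-5p ranged from 15.2 nRPM in ΔmiR-17,18,92 to 36.9 in ΔmiR-92, with 16.9 in wild type.

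Mir669f gave on average more of its 3p than of its 5p strand, with a mean of 33.3 against 23.6 nRPM, but the 5p share ran from 26.7% to 62.2%. The 5p strand was the higher one in ΔmiR-92, ΔmiR-17,18 and the full deletion. miR-669f-3p stood at 46.5 nRPM in wild type, with ΔmiR-17 at 46.2, ΔmiR-18 at 39.5, ΔmiR-19 at 38.2, ΔmiR-17,18,92 at 35.5, ΔmiR-92 at 32.1, ΔmiR-17,18 at 15.8 and the full deletion at 12.7. Wild type and ΔmiR-17 were nearly equal, and ΔmiR-17,18 (ratio 0.340) and the full deletion (0.273, 0.219 to 0.338) were apart from the others. The least abundant passing row, miR-669a-3-3p, had 12.7 nRPM in wild type and 1.05 nRPM in the full deletion, from 81 and 10 reads. Its ratio there was 0.0827 (0.0382 to 0.160), the lowest of the 23 passing rows in that library.

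The miR-467 family had 3 passing rows, all 5p strands. It was low in wild type and ΔmiR-17 and high in ΔmiR-19 and ΔmiR-92. Summed over its 7 rows, it stood at 362 nRPM in ΔmiR-19, with ΔmiR-92 at 357, the full deletion at 292.7, ΔmiR-18 at 267, ΔmiR-17,18,92 at 259.7, ΔmiR-17,18 at 228, wild type at 175 and ΔmiR-17 at 134.2. ΔmiR-17 was at 0.768 of wild type and the other 6 mutants at 1.31 to 2.07, with the same directions under the 4 other scalings. The liver marker list, a single row, was also low in wild type (69.4 nRPM) and ΔmiR-17 (71.0 nRPM), and low in the full deletion (76.7 nRPM), against 167 to 271 nRPM elsewhere. Its part in these levels was not tested.

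miR-467c-5p stood at 145 nRPM in ΔmiR-92, with ΔmiR-19 at 142, the full deletion at 137, ΔmiR-18 at 118, ΔmiR-17,18,92 at 101, wild type at 88.3, ΔmiR-17 at 63.6 and ΔmiR-17,18 at 57.3. The ΔmiR-17 and ΔmiR-17,18 libraries were its lowest. miR-467e-5p stood at 151 nRPM in ΔmiR-92, with ΔmiR-19 at 137, ΔmiR-17,18 at 126.6, ΔmiR-18 at 105, ΔmiR-17,18,92 at 102, the full deletion at 89.7, wild type at 54.8 and ΔmiR-17 at 38.7. Here ΔmiR-17,18 was among the higher libraries, unlike in miR-467c-5p, and the highest ratio was 2.76 (2.45 to 3.13) in ΔmiR-92. miR-467d-5p stood at 79.0 nRPM in ΔmiR-19, with the full deletion at 62.2, ΔmiR-92 at 56.4, ΔmiR-17,18,92 at 54.3, ΔmiR-17,18 at 42.5, ΔmiR-18 at 37.8, ΔmiR-17 at 28.7 and wild type at 26.5. Its ratio to wild type was 2.98 (2.52 to 3.55) in ΔmiR-19 and 1.09 (0.904 to 1.31) in ΔmiR-17. The 5p strand held 99.0% of the Mir467c level and 98.4% of the Mir467e level. Both strands of miR-467b were scarce, with means of 0.469 (5p) and 0.649 nRPM (3p), and the 5p share was 42.0%.

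The miR-466 family was lowest in wild type, with 127.02 nRPM over its 29 rows. The sums were 222 nRPM in ΔmiR-18, with ΔmiR-92 at 216, ΔmiR-17 at 187, ΔmiR-17,18,92 at 183, ΔmiR-19 at 165, ΔmiR-17,18 at 163 and the full deletion at 142. The ratios ran from 1.12 in the full deletion to 1.75 in ΔmiR-18. In the full deletion the direction depended on the scaling, with a ratio of 0.958 when libraries were scaled to reads outside the miR-17~92 cluster.

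miR-466c-5p, which matched 3 hairpins, stood at 77.4 nRPM in ΔmiR-17,18,92, with ΔmiR-17,18 at 57.8, ΔmiR-17 at 55.3, ΔmiR-19 at 52.7, ΔmiR-18 at 44.7, ΔmiR-92 at 39.8, wild type at 39.6 and the full deletion at 36.6. Only ΔmiR-17,18,92 stood well above the rest, at 1.95 of wild type (1.70 to 2.25). miR-466d-3p stood at 77.1 nRPM in ΔmiR-92, with ΔmiR-18 at 64.7, ΔmiR-17 at 43.7, wild type at 37.3, the full deletion at 32.4, ΔmiR-17,18,92 at 30.2, ΔmiR-17,18 at 20.4 and ΔmiR-19 at 18.4. ΔmiR-92 was the highest and ΔmiR-19 the lowest, opposite ends of a 4.19-fold range. It was the dominant strand of its hairpin, since miR-466d-5p held 6.90% of the pair.

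Rows miR-466b-5p and miR-466e-5p had the same reads, and miR-466a-5p had nearly the same. miR-466a-5p stood at 12.3 nRPM in ΔmiR-17,18,92, with ΔmiR-18 at 12.0, ΔmiR-92 at 11.0, ΔmiR-19 at 10.5, ΔmiR-17 at 9.26, ΔmiR-17,18 at 7.33, the full deletion at 5.98 and wild type at 2.82. Wild type was below all 7 mutants, on 18 reads, and the ratios ran from 2.12 (1.23 to 3.83) in the full deletion to 4.37 (2.69 to 7.55) in ΔmiR-17,18,92. For miR-466b-5p the ratios were 1.91 to 3.79. The most even member was miR-466h-5p, which ranged from 19.5 nRPM in ΔmiR-17,18,92 to 39.1 in ΔmiR-18, a 2.01-fold range, with 22.4 in wild type.

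The miR-297 family was highest in wild type, at 133.1 nRPM over its 5 rows, and lowest in the full deletion, at 54.4 nRPM, but this sum counts 1 set of 3p reads 3 times. With those reads counted once, wild type had 66.7 nRPM, ΔmiR-19 64.6 and ΔmiR-17 64.2, while ΔmiR-92 (43.8), ΔmiR-17,18 (42.9) and the full deletion (42.4) were lowest and close together. The ratios to wild type were then 0.636 to 0.968, against 0.408 to 0.841 over all 5 rows. Over all 5 rows, ΔmiR-17,18,92 was at 1.06 of wild type when libraries were scaled to all miRNA reads. miR-297a-3p, miR-297b-3p and miR-297c-3p were the rows that shared reads and count as 1 measurement. It stood at 33.2 nRPM in wild type, with ΔmiR-18 at 30.3, ΔmiR-17,18,92 at 27.4, ΔmiR-17,18 at 24.3, ΔmiR-17 at 22.9, ΔmiR-92 at 22.2, ΔmiR-19 at 19.1 and the full deletion at 5.98. The full deletion was far below the other libraries, at 0.180 (0.132 to 0.242) of wild type. The opposite strand, miR-297b-5p, had 33.5 nRPM in wild type and 36.4 in the full deletion, and ranged from 18.7 in ΔmiR-17,18 to 45.4 in ΔmiR-19.

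**Figure D3:**
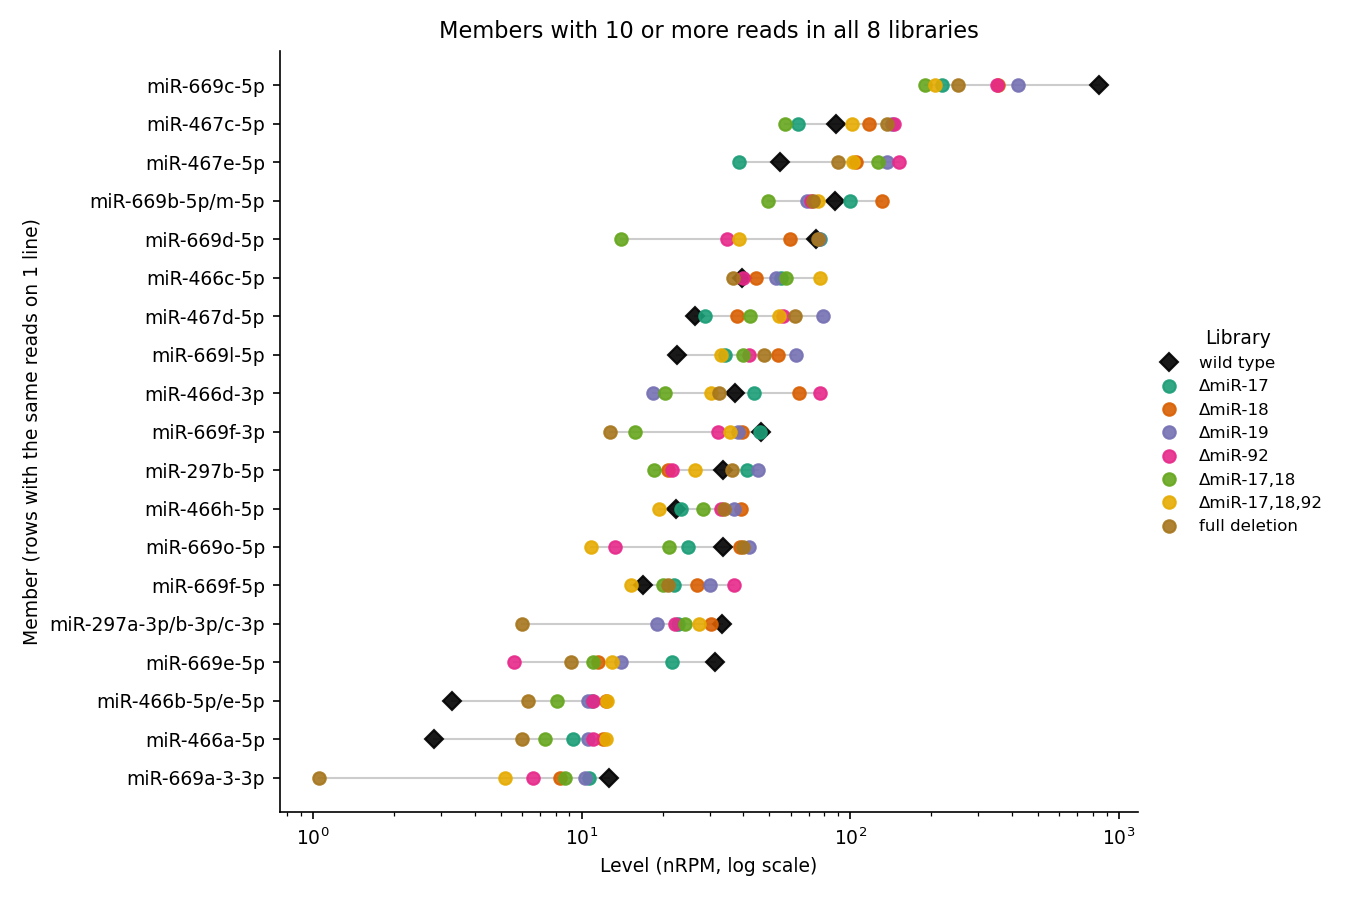
Level of the 23 members with 10 or more reads in all 8 libraries (nRPM, log scale), 1 line per distinct set of reads, with the wild-type library as a black diamond and the 7 mutants as coloured points. Wild type lies at the right end for miR-669c-5p, miR-669f-3p (close to ΔmiR-17), miR-297a-3p, miR-669e-5p and miR-669a-3-3p. It lies at the left end for miR-467d-5p, miR-669l-5p, miR-466b-5p and miR-466a-5p.

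Across strands, the full deletion had the lowest 3p level. The 27 rows named 3p summed to 86.5 nRPM there, 0.373 of wild type, and to as much as 240.9 nRPM in ΔmiR-18. With rows of the same reads counted once, the full deletion was at 74.5 nRPM, 0.450 of wild type. The 6 passing 3p rows hold 4 distinct sets of reads, and all 4 were below wild type in the full deletion, as also in ΔmiR-19, ΔmiR-17,18 and ΔmiR-17,18,92. For miR-466d-3p the ratio in the full deletion was 0.870, with an interval (0.732 to 1.03) that includes 1. Of all 634 passing rows, 320 were above wild type in the full deletion. The median log2 ratio of the 4 in the full deletion was -2.17, against 0.30 over the 17 passing 5p rows and 0.01 over all 634 rows. The 17 rows hold 15 distinct sets of reads and were not reduced to these. The endothelial list of miRNAs was higher in the full deletion (16209 nRPM) than in wild type (10720 nRPM). So were the neural list (4493 and 3119 nRPM) and the epithelial list (12538 and 9956 nRPM). In the epithelial list, 1 row was 2-fold or more higher and 1 was 2-fold or more lower. The blood (1292 and 1273 nRPM), muscle (3314 and 3026 nRPM) and liver lists (76.7 and 69.4 nRPM) were a little higher too. The miR-290 to miR-295 cluster was lower (2415 and 3161 nRPM), while the miR-302 cluster was higher (8427 and 7047 nRPM). The part of these lists in the 3p difference was not tested.

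The range between libraries was wider for the members than for other rows between the members' lowest and highest mean level. Levels were not matched within these limits, and the difference was described and not tested. The ratio of highest to lowest library had a median of 3.79 over the passing members, from 2.01 for miR-466h-5p to 12.1 for miR-669a-3-3p. It was 2.80 over other rows of the same range of mean level and 2.78 over all 634 passing rows. Wild type was the highest library for 7 of the 23 passing members, against 12% of all passing rows, and the lowest for 5, against 14.2%. The 7 hold 5 distinct sets of reads of 19, and the 5 hold 4. The full deletion and ΔmiR-17,18 were each the lowest library for 6 members, against 14.8% and 14.7% of all passing rows, and the highest for 0, against 16.7% and 14%. By distinct reads they were lowest for 4 and 5 of 19.

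Pairs of distinct passing members moved together little over the 8 libraries. The median Pearson correlation was 0.12 over 171 pairs, 0.29 within a family and 0.03 between families, and 0.68 over the 3 miR-467 pairs. Members of a pair share their libraries, and near-copies can share reads.

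In each mutant, members that differed by 2-fold or more from wild type were counted among the 23 that passed, as a description of library pairs that all share the wild-type library. In ΔmiR-17 there were 4, of which 3 were higher (background 14.4% of all 634 rows either way, 6.15% higher, 8.2% lower). In ΔmiR-18 there were 6, of which 4 were higher (background 18.8%, 9.94% and 8.83%). In ΔmiR-19 there were 9, of which 6 were higher (18.5%, 7.41% and 11%). These shares of members, 4, 6 and 9 of 23, include rows with the same reads. Counted by distinct reads, they were 3, 5 and 8 of 19.

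In ΔmiR-92, 11 of the 23 differed by 2-fold or more and 7 of them were higher (background 21%, 11.7% and 9.31%). ΔmiR-17,18 had 8, of which 4 were higher (28.2%, 14.2% and 14%). ΔmiR-17,18,92 also had 8, with 4 higher (25.1%, 13.9% and 11.2%). The full deletion had 10, of which 3 were higher and 7 lower (23%, 10.3% and 12.8%). By distinct reads the counts were 10, 7, 7 and 8 of 19. Against the median of the 8 libraries in place of wild type the counts fell to between 0 and 5 per mutant. No count over all rows was made with that reference, so the fall has no background to be read against.

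**Figure D4:**
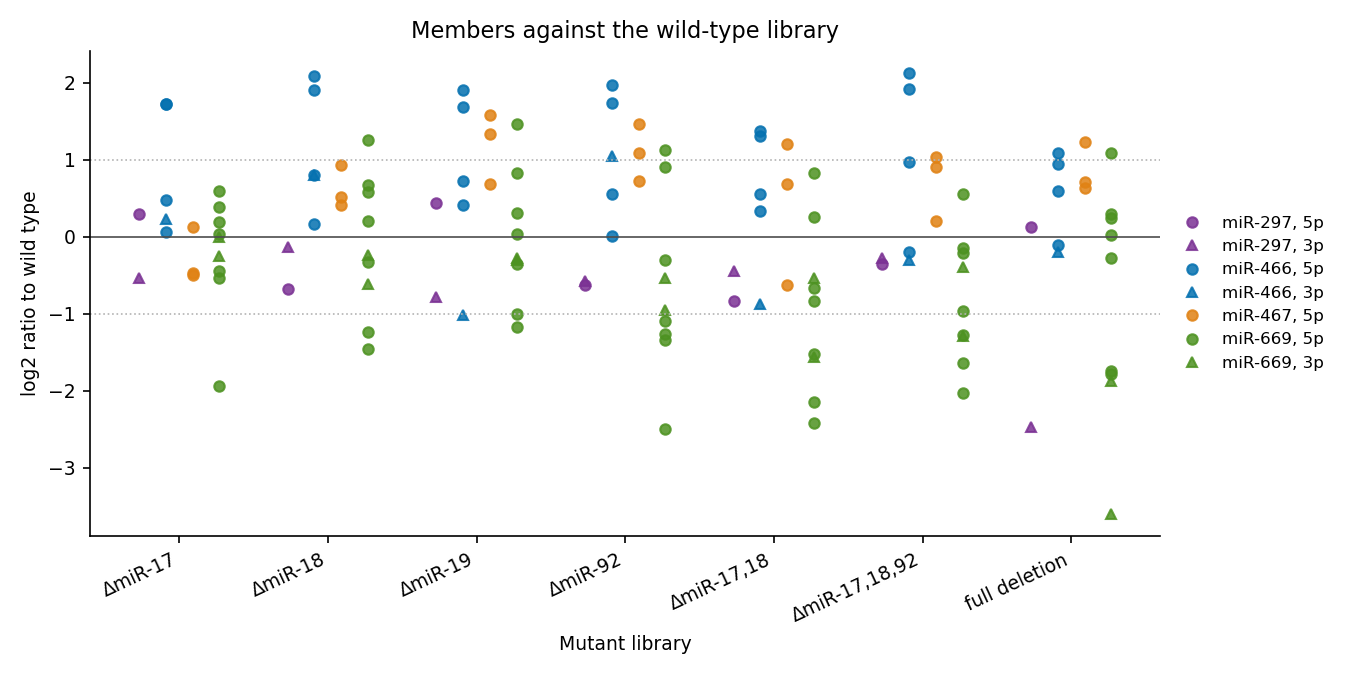
Log2 ratio of each mutant library to the wild-type library for the 23 members with 10 or more reads in all libraries, 1 point per distinct set of reads, coloured by family, with circles for 5p and triangles for 3p strands and dotted lines at 2-fold. miR-466 circles lie mostly above 0 and miR-669 points mostly below it, and the lowest point is miR-669a-3-3p in the full deletion, at a ratio of 0.0827.

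Among distinct members averaging 20 nRPM or more, the 3 lowest and 3 highest ratios in each mutant were as follows. In ΔmiR-17 the lowest were miR-669c-5p (0.260), miR-297a-3p (0.689) and miR-467e-5p (0.705), and the highest miR-669l-5p (1.51), miR-466c-5p (1.39) and miR-669f-5p (1.30). In ΔmiR-18 they were miR-669c-5p (0.422), miR-297b-5p (0.625) and miR-669d-5p (0.798) against miR-669l-5p (2.39), miR-467e-5p (1.91) and miR-466h-5p (1.74). miR-669l-5p led both of these libraries, at a ratio whose denominator is its lowest library.

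In ΔmiR-19 the lowest ratios were miR-466d-3p (0.494), miR-669c-5p (0.499) and miR-297a-3p (0.577), and the highest miR-467d-5p (2.98), miR-669l-5p (2.78) and miR-467e-5p (2.51). In ΔmiR-92 the lowest were miR-669o-5p (0.395), miR-669c-5p (0.417) and miR-669d-5p (0.465), and the highest miR-467e-5p (2.76), miR-669f-5p (2.18) and miR-467d-5p (2.13). miR-467d-5p and miR-467e-5p were among the 3 highest in both libraries, while miR-467c-5p was at 1.61 and 1.64.

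In ΔmiR-17,18 the lowest were miR-669d-5p (0.187), miR-669c-5p (0.225) and miR-669f-3p (0.340), and the highest miR-467e-5p (2.31), miR-669l-5p (1.77) and miR-467d-5p (1.60). In ΔmiR-17,18,92 they were miR-669c-5p (0.245), miR-669o-5p (0.321) and miR-669d-5p (0.515) against miR-467d-5p (2.05), miR-466c-5p (1.95) and miR-467e-5p (1.87). In the full deletion they were miR-297a-3p (0.180), miR-669f-3p (0.273) and miR-669c-5p (0.299) against miR-467d-5p (2.35), miR-669l-5p (2.12) and miR-467e-5p (1.64). miR-669c-5p was among the 3 lowest in all 7 mutants, all against the same wild-type library.

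A fit over all 8 libraries asked whether members moved with the deletion of each seed family. limma, with an additive term for each of the 4 families, tested 551 rows that averaged 10 nRPM or more, 19 of them members. At an adjusted p (Benjamini-Hochberg) under 0.05 it called 0 members for each term. Among all rows it called 4 (0.726%) for the miR-17 term, 2 (0.363%) under miR-18, 4 (0.726%) under miR-19 and 2 (0.363%) under miR-92. At an unadjusted p under 0.05, limma had 1 member for the miR-17 term, 0 under miR-18, 4 under miR-19 and 0 under miR-92, against 3.09%, 4.54%, 3.81% and 1.63% of all rows. edgeR's quasi-likelihood test and DESeq2's Wald test on the recovered reads also called 0 members. Among all rows, edgeR called 4, 0, 4 and 2 and DESeq2 6, 4, 6 and 2. At an unadjusted p under 0.05, edgeR had 1, 0, 4 and 0 members, against 16, 20, 18 and 8 of all 551 rows. DESeq2 had 2, 0, 4 and 1 members there, against 22, 29, 30 and 16 of the 551.

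For the miR-17 term the member was miR-467c-5p, with a log2 change of -0.74 (SE 0.30) and an adjusted p of 0.996 by limma. For the miR-19 term they were the 3 miR-297 3p rows that share reads (log2 change -1.14, SE 0.43) and miR-669o-5p (1.03, SE 0.44), each with an adjusted p of 0.959 by limma. miR-669c-5p had a log2 change of -0.94 (SE 0.41) for the miR-17 term, with an adjusted p of 0.996 by limma. The difference of wild type from all 7 mutants in this member is no term of the fit.

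The 39 members that missed 10 reads in some library made up the rest. Just outside, miR-466d-5p and miR-466n-5p had 8 reads in wild type, and just inside, miR-669a-3-3p had 10 in the full deletion. The highest of the 39, miR-466n-3p, ranged from 5 reads (0.526 nRPM) in ΔmiR-19 to 152 reads (17.4 nRPM) in ΔmiR-17,18. miR-669p-3p had 54 reads (8.46 nRPM) in wild type and 2 (0.229 nRPM) in ΔmiR-17,18.

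miR-466k, whose sequence is given above and whose hairpin lies outside Sfmbt2, had 0 reads in wild type and 27 to 193 reads in the mutants. It was at 12.0 nRPM in ΔmiR-18, with ΔmiR-17 at 4.67, ΔmiR-17,18,92 at 4.43, ΔmiR-92 at 4.29, the full deletion at 3.67, ΔmiR-17,18 at 3.09 and ΔmiR-19 at 2.95. Set against 3 reads in wild type (0.470 nRPM), the level was 25.6-fold in ΔmiR-18 and 6.27-fold in ΔmiR-19, the smallest of the 7. These values leave out counting error in the mutant. The lower limits of the exact conditional interval were 20.6 in ΔmiR-18 and 4.77 in ΔmiR-19. miR-466q had 12 reads in ΔmiR-19, 7 in ΔmiR-17,18,92 and 0 in the other 6 libraries.

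In all, 30 of the 62 members had 0 reads in at least 1 library, against 269 of all 986 rows. In wild type 17 members had 0, a count not made over all rows, and miR-466b-3p had 0 in all 8 libraries. Its second row had 9 reads in ΔmiR-92 alone. Of the 44 rows with 1 hairpin, 17 passed and 19 had a library at 0. Of the 16 rows with more than 1 hairpin, 5 passed and 10 had a library at 0. The median mean level was 0.675 nRPM for rows with more than 1 hairpin and 2.77 nRPM for rows with 1. These groups are not independent, since some reads stand in both, as in miR-466e-5p (1 hairpin) and miR-466b-5p (8 hairpins). Several of the rows with more than 1 hairpin are rows of miR-466b or miR-466f. The treatment of reads that fit several copies is not stated in the material at hand, and its part in these levels was not tested.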

How the data were processed

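Small RNA libraries of 8 genotypes, 1 each, and 1 library of undetermined reads were used. The deposited table gives 1 normalised signal value per mature miRNA and library, made by the authors from read counts. Per the submitters' processing notes, the tools were featureCounts (Subread 1.4.2), STAR 2.2.0 and SAMtools 0.1.19, with mm9 as the build. The handling of reads with several places is not stated there. Values of each column were whole multiples of its smallest value within 0.001 reads (100% of values), which gave recovered reads. Where rows of 1 accession had totals within 10% of each other, only the higher was kept. Deposited signal values were multiplied by 0.1159 to give nRPM.

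limma 3.58.1 (trend, log2 of nRPM + 1, which understates changes of low rows, 3 residual degrees of freedom) was fitted to all rows with a mean of at least 10 nRPM, and calls were made at a Benjamini-Hochberg adjusted p under 0.05. edgeR 4.0.16 and DESeq2 1.42.0 (R 4.3.3) on recovered reads were alternatives, and the scripts were tested on simulated data. Python 3.11.15 and scipy 1.17.1 gave intervals at 95%. A row with 0 reads was set against 3 reads. The p-values rest on the spread among libraries that each have their own genotype.

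Named were the members with 10 or more reads in all 8 genotype libraries, in full for the 10 highest, and the 3 highest and 3 lowest ratios per mutant among members averaging 20 nRPM or more. Members and lists were chosen with earlier results of these data known. Hairpin positions are from GENCODE M21 (GRCm38) and sequences from RefSeq (GRCm38.p6), not from the build of the table, and were matched by name. Alternatives covered scaling, filters, pseudocount, test, reference, merging and leaving out libraries.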

Additional observations from a re-analysis of the deposited data

Results flagged for a closer look

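The library of undetermined reads, which entered no comparison, held 3322 reads of the members. This was 0.110% of its miRNA reads (95% Clopper-Pearson interval 0.106% to 0.114%), within the 0.0861% to 0.155% of the genotype libraries. In it, 49 of the 62 members had a read.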

How the results depend on the processing

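Each genotype had 1 library, so ratios to wild type have no replicate check, and low members are limited by their reads. No paired analysis was possible because the genotypes have 1 library each and share fewer than 2 replicate numbers. Members called by the fit were 0 under every alternative, the leave-one-out fits included (lowest and highest 0). The lowest adjusted p of a member over these alternatives was 0.623 for the miR-17, 0.535 for the miR-18, 0.474 for the miR-19 and 0.438 for the miR-92 term.

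Of 56 alternative counts of members at 2-fold, 39 were within 1.5 times the main count. With rows averaging 10 nRPM or more, the counts were ΔmiR-17 at 1, ΔmiR-18 at 3, ΔmiR-17,18 at 5 and ΔmiR-17,18,92 at 4. With 50 or more reads in all libraries they were ΔmiR-17 at 1, ΔmiR-18 at 2, ΔmiR-19 at 5, ΔmiR-92 at 7, ΔmiR-17,18 at 4 and ΔmiR-17,18,92 at 3. Fewer members pass these filters, 19 with the first and 18 with the second. Against the median of the 8 libraries they were ΔmiR-17 at 1, ΔmiR-18 at 0, ΔmiR-19 at 0, ΔmiR-92 at 3, ΔmiR-17,18 at 2, ΔmiR-17,18,92 at 1 and the full deletion at 5. Only counts outside 1.5 times the main count are listed. The same counts over all rows were not made, so these have no background.

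The summed level relative to wild type stayed below 1 in all 7 mutants under each scaling and merging tried, but not without miR-669c-5p. Scaled to all miRNA reads, it put ΔmiR-17 at 0.745, ΔmiR-18 at 0.828, ΔmiR-19 at 0.977, ΔmiR-92 at 0.919, ΔmiR-17,18 at 0.555, ΔmiR-17,18,92 at 0.812 and the full deletion at 0.751. This scaling moved the median log2 ratio of all rows to between -0.08 and 0.37. Scaled to reads outside the miR-17~92 cluster, it put ΔmiR-18 at 0.889, ΔmiR-19 at 0.890, ΔmiR-92 at 0.812, ΔmiR-17,18 at 0.515, ΔmiR-17,18,92 at 0.647 and the full deletion at 0.550, where the median of all rows was -0.21. TMM gave ΔmiR-17 at 0.664 and ΔmiR-92 at 0.734, and median-ratio factors ΔmiR-18 at 0.883. With all rows kept it put ΔmiR-17 at 0.6995, ΔmiR-18 at 0.894, ΔmiR-17,18,92 at 0.663 and the full deletion at 0.661. With rows of the same reads counted once it put ΔmiR-17 at 0.606, ΔmiR-18 at 0.816 and ΔmiR-17,18,92 at 0.596. Without miR-669c-5p it put ΔmiR-17 at 1.01, ΔmiR-18 at 1.28, ΔmiR-19 at 1.21, ΔmiR-92 at 1.13, ΔmiR-17,18 at 0.826, ΔmiR-17,18,92 at 0.992 and the full deletion at 0.971.

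Of 805 alternative ratios of single members, 64 changed sign, 47 of them against the median of the 8 libraries in place of wild type, which uses another reference by construction. Among ratios of 2-fold or more, 12 changed sign, all against that median. The log2 ratio of miR-669c-5p was then 0.24 (ΔmiR-18), 0.48 (ΔmiR-19) and 0.22 (ΔmiR-92), and that of miR-669e-5p 0.20 (ΔmiR-19) and 0.08 (ΔmiR-17,18,92). For miR-466b-5p and miR-466e-5p it was -0.03 (ΔmiR-19) and -0.40 (ΔmiR-17,18), and for miR-466a-5p -0.09 (ΔmiR-17), -0.43 (ΔmiR-17,18) and -0.73 (full deletion).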

Other observations

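In the library of undetermined reads, 1 member had reads that no genotype library had, miR-466b-3p with 14 reads. miR-466b-5p had further rows there with 26 and 17 reads, against at most 6 and 5 in any genotype library.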
